A study of Mus musculus with 11 samples.

Results

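A set of 10 genes of the serum and growth factor response was followed through a mouse acinar cell line treated with EGF, with or without siRNAs against Arid1a. They are the zinc finger transcription factor genes Egr1, Egr2 and Egr3, the orphan nuclear receptor genes Nr4a1, Nr4a2 and Nr4a3, the immediate early response genes Ier2, Ier3 and Ier5, and Srf, which encodes the transcription factor that binds the promoters of many genes of this kind. The 10 genes were chosen by name out of 23284 genes counted, with earlier results of these data known. All 10 were listed and passed the filter on low counts.

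The study asks how EGF receptor signalling and ARID1A, a DNA-binding subunit of the BAF chromatin remodelling complex, act together on the RNA of pancreatic acinar cells. The cells were 266-6, a single mouse acinar line, which limits what the libraries can say of acinar cells in a pancreas. Cells were transfected for 48 h with siRNAs against Arid1a (25 nM) or a non-targeting control siRNA, kept overnight without serum, and then given EGF (40 ng/ml) or its vehicle (0.1% BSA) for 8 h. The groups were Arid1a siRNAs with EGF (siArid1a with EGF, n = 3), Arid1a siRNAs with vehicle (siArid1a, n = 3), control siRNA with EGF (siCtrl with EGF, n = 3) and control siRNA with vehicle (siCtrl, n = 2). All 4 groups share the line, the transfection and the starvation. No label says that the replicates were separate cultures, so the p-values measure the spread between these libraries, which may be technical.

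Immediate early genes are transcribed within minutes of a growth factor reaching its receptor, without the need for new protein. EGF activates the receptor's kinase and, through Ras, the MAP kinase ERK, which phosphorylates ternary complex factors such as ELK1 that sit beside SRF on CArG boxes. CREB, which binds CRE sequences, and the MRTF coactivators of SRF supply further routes. The products feed back on the same circuit, since EGR proteins induce their corepressor NAB2. In most cells the first wave of these transcripts has passed within a few hours, and 8 h is a late time in that course.

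The promoters of Egr2, Nr4a1 and Srf are printed because they hold sequences that SRF, CREB and EGR proteins are known to read. RefSeq promoter windows of the mouse build GRCm38.p6, from 250 bases before to 50 after the transcription start, were matched for 7 of the 10 genes, all but Egr1, Egr3 and Ier2. Capitals mark the CArG box in Egr2, the CRE core and the EGR site in Nr4a1, and the CArG boxes, the ETS site and the EGR site in Srf, each 5′ to 3′ on the strand of the gene.
Egr2 (chr10:67537619-67537918, plus strand): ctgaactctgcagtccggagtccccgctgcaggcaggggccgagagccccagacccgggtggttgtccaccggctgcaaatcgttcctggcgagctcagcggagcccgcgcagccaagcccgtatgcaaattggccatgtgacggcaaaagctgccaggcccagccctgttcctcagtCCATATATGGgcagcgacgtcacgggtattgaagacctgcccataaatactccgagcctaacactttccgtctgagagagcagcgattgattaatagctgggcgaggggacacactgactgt
Nr4a1 (chr15:101266596-101266895, plus strand): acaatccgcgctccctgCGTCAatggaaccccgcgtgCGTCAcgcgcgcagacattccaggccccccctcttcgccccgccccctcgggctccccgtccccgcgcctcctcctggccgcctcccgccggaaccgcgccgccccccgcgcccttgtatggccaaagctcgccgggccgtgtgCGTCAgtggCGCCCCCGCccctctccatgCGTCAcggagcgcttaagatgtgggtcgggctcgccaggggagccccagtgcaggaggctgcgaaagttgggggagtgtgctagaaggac
Srf (chr17:46556113-46556412, minus strand): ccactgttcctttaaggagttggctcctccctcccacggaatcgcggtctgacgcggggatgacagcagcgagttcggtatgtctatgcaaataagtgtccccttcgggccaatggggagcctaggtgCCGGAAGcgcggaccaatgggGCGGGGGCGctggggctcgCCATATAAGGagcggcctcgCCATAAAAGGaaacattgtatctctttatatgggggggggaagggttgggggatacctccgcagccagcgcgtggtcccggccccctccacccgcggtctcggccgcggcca

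A match to letters in these windows is a description and not a bound site. Both strands were searched for the CArG box by name, the CRE core TGACG, the ETS site CCGGAAG and the EGR site GCGGGGGCG, and no match shown overlapped another. The Egr2 window printed held the CArG box CCATATATGG at position -72, counted from the start, and 4 of the 5 Egr2 windows held 1. Those that start at 67537619, 67537620 and 67537680 overlap and hold the same box, so the windows do not count separate sites. The Srf window held CArG boxes at positions -82 and -62, an ETS site at -122 and an EGR site at -101. CArG boxes were found in 535 of 32851 windows (1.63%), ETS sites in 8.86% and EGR sites in 2.91%. The Nr4a1 window held 4 CRE cores, written CGTCA on this strand, and an EGR site at -60. The windows of Nr4a2 and Nr4a3 also held 4 CRE cores each. At least 1 core was found in 20.8% of all windows, and the share with 4 was not counted. The Egr2 window held CRE cores at -111 and -55 and the Srf window 1 at -201, all left in lower case. The windows of Ier3 and Ier5 held none of the 4 motifs.

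Depth was 11947581 to 14143225 counted reads in siArid1a with EGF, 10279763 to 15710575 in siArid1a, 13547278 to 16796787 in siCtrl with EGF, and 14059719 to 19773007 in siCtrl. The knockdown left Arid1a at 122 to 151 CPM (reads of a gene scaled to a common library size) in siArid1a with EGF and 127 to 157 CPM in siArid1a, against 263 to 308 CPM in siCtrl with EGF and 291 to 399.7 CPM in siCtrl. The siCtrl pair had the highest chi-square per degree of freedom against counting error (10.9), though siArid1a replicates 2 and 3 were close to that at 9.04. The other pairs within groups were at 1.57 to 6.64. For libraries that differ, this value grows with depth, and siCtrl replicate 1 was the deepest library, so it does not rank the pairs by their difference. Calls of the 10 genes that turn on 1 library are given with and without it. Of 12 acinar markers, 11 passed the filter on low counts, with a summed level of 13741 to 18149 CPM over the 11 libraries, while the amylase gene Amy2a5 was at 0. Most of that sum was Ctrb1, at 11273 to 14328 CPM, followed by Cela1 at 1241 to 2687 CPM. Prss1 was at 0.512 to 5.71 CPM and Pnlip at 2.46 to 5.16 CPM. Of the other cell types looked for, the T cell gene Cd3e, the endothelial gene Cdh5, the fibroblast gene Lum and the islet hormone genes Ins1, Ins2 and Sst were at 0 in all libraries. Other markers of these types were not, with the pericyte and fibroblast gene Pdgfrb at 269 to 321 CPM, the endothelial gene Tek at 37.0 to 52.2 CPM and the macrophage gene Cd68 at 4.95 to 9.22 CPM.

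More of the 10 genes rose than fell with EGF in both siRNA conditions, and the Egr genes had the largest changes. The summed level was 343 ± 10.7 CPM in siArid1a with EGF and 274 ± 10.5 CPM in siArid1a (SD, n = 3 each), and 401.0 ± 5.68 CPM in siCtrl with EGF (n = 3) and 304 ± 13.8 CPM in siCtrl (n = 2). With Arid1a siRNAs, 5 of the 10 genes rose with EGF, 0 fell and 5 did not pass, where 13.0% of all 13343 tested genes rose and 10.4% fell (23.4% in either direction). With control siRNA, 6 rose, 1 fell and 3 did not pass, where 16.8% of all tested genes rose and 18.8% fell (35.6% in either direction). The median log2 change of the 10 genes was 0.43 with Arid1a siRNAs and 0.54 with control siRNA, against medians of -0.01 and -0.03 over all tested genes. With Arid1a siRNAs, the libraries with EGF lay wholly above those without for 7 of the 10 genes and wholly below for 0, as they did for 19.7% and 19.0% of all tested genes. With control siRNA, they lay wholly above for 6 and wholly below for 1, as they did for 25.7% and 29.9% of all tested genes. A gene counts as changed at a Benjamini-Hochberg adjusted p under 0.05 in edgeR's quasi-likelihood test over all tested genes, two-sided. In bulk RNA, fewer cells that make a transcript and less of it per cell cannot be told apart.

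**Figure D1:**
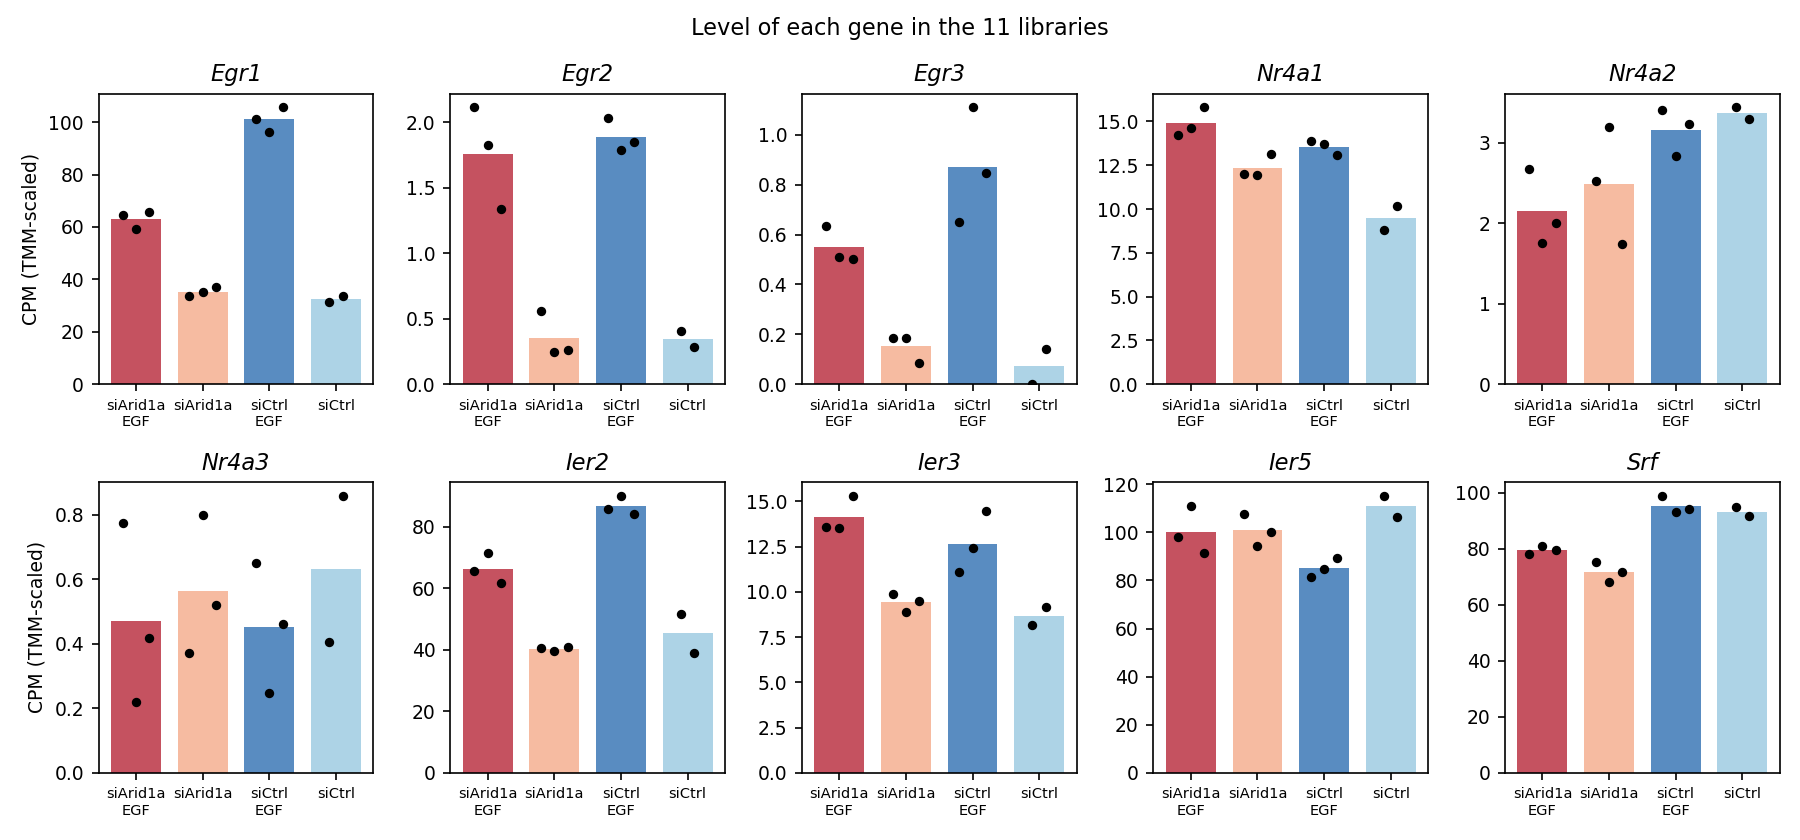
Level of each of the 10 genes in CPM (TMM-scaled, linear axis from 0) by group, with points for the 11 libraries and bars for group means (n = 3, and n = 2 for siCtrl). Egr1 reached 59.1 to 65.8 CPM in siArid1a with EGF, below the 96.3 to 106 CPM of siCtrl with EGF, while the groups without EGF lay between 31.2 and 37.2 CPM.

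Egr1, the Egr gene with the highest FPKM, rose with EGF in both siRNA conditions and rose less with Arid1a siRNAs. It had 64.7, 59.1 and 65.8 CPM in siArid1a with EGF, against 33.6, 35.2 and 37.2 CPM in siArid1a. With control siRNA it had 101, 96.3 and 106 CPM in siCtrl with EGF, against 31.2 and 33.8 CPM in siCtrl. No library with EGF overlapped one without it, and every siArid1a library with EGF lay below every siCtrl library with EGF. The rise was 1.79-fold with Arid1a siRNAs (log2 0.84 ± 0.07, SE; edgeR adjusted p = 1.14e-06) and 3.11-fold with control siRNA (log2 1.64 ± 0.08; edgeR adjusted p = 1.88e-09). Of all tested genes, 98.9% had a smaller log2 change than Egr1 with control siRNA.

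The knockdown itself moved Egr1 where EGF was present. With EGF it was lower in siArid1a than in siCtrl (log2 -0.68 ± 0.07, edgeR adjusted p = 1.38e-06). Without EGF the means were 35.4 CPM in siArid1a and 32.5 CPM in siCtrl, and the difference did not pass (log2 0.12 ± 0.08, edgeR adjusted p = 0.244). On the linear scale EGF added 27.9 ± 2.31 CPM with Arid1a siRNAs and 68.6 ± 3.0 CPM with control siRNA (SE), so the first gain was 40.6% of the second. The difference between the EGF responses on the log2 scale was -0.80 ± 0.10 (95% interval -1.02 to -0.579, edgeR adjusted p = 0.00187), which ranked 11 by p among all tested genes. Of all tested genes, 0.382% had a difference of responses called below 0 and 0.562% one called above 0. Of the 10 genes, 1 was called below 0 (Egr1), 0 above 0, and 9 did not pass.

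Summed markers of some cell types differed with EGF in the same libraries. The summed level of 6 ductal markers, most of it Sox9, was 77.9 to 85.9 CPM in siArid1a with EGF and 53.7 to 59.2 CPM in siArid1a, and 117 to 129 CPM in siCtrl with EGF and 55.5 to 78.5 CPM in siCtrl. The 6 islet markers summed to 795 to 840 CPM in siArid1a with EGF and 627 to 768 CPM in siArid1a, and to 1113 to 1159 CPM in siCtrl with EGF and 702 to 752 CPM in siCtrl. Nearly all of that sum was the granule gene Chga. The 12 acinar markers, mostly Ctrb1, summed to 14490 to 16265 CPM in siArid1a with EGF and 15253 to 18149 CPM in siArid1a, which overlapped, and to 13741 to 15037 CPM in siCtrl with EGF and 15480 to 17482 CPM in siCtrl, which did not. Of the 11 tested, 4 fell and 1 rose with EGF under Arid1a siRNAs, where 10.4% of all tested genes fell and 13.0% rose. With control siRNA 6 fell and 1 rose, where 18.8% of all tested genes fell and 16.8% rose. The 7 immune markers, mostly Cd68, summed to 8.28 to 9.29 CPM in siArid1a with EGF and 6.00 to 7.18 CPM in siArid1a, and to 6.41 to 7.67 CPM in siCtrl with EGF and 5.05 to 5.58 CPM in siCtrl. Fibroblast sums were 319 to 327 CPM in siArid1a with EGF and 302 to 336 CPM in siArid1a, which overlapped, and 303 to 333 CPM in siCtrl with EGF and 282 to 287 CPM in siCtrl, which did not. Endothelial sums overlapped in both siRNA conditions, at 48.1 to 55.3 CPM in siArid1a with EGF and 42.6 to 50.9 CPM in siArid1a, and 38.6 to 46.6 CPM in siCtrl with EGF and 43.9 to 45.3 CPM in siCtrl. The part of these markers in the Egr1 result was not tested.

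Egr2, known for its role in the myelinating Schwann cell, was rare and rose with EGF by about the same factor in both siRNA conditions. It had 2.11, 1.83 and 1.34 CPM in siArid1a with EGF, against 0.559, 0.246 and 0.261 CPM in siArid1a. In the control siRNA libraries it had 2.03, 1.79 and 1.84 CPM with EGF, against 0.404 and 0.286 CPM in siCtrl. All libraries with EGF lay above all without it. The rise was 5.14-fold with Arid1a siRNAs (log2 2.36 ± 0.35, edgeR adjusted p = 0.000191) and 5.20-fold with control siRNA (log2 2.38 ± 0.36, edgeR adjusted p = 0.000119). The difference of the responses was -0.02 with a 95% interval of -1.25 to 1.22 on the log2 scale, so a difference as large as that of Egr1 lies within the interval. These values rest on 71 and 13 reads with Arid1a siRNAs and 81 and 12 with control siRNA.

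Egr3, close to Egr1 in its DNA-binding domain, was counted in few reads. It was counted 9, 7 and 6 times in siArid1a with EGF, against 2, 3 and 1 times in siArid1a. It was counted 9, 18 and 11 times in siCtrl with EGF, against 0 and 2 times in siCtrl. Libraries with and without EGF did not overlap in either siRNA condition. Its reads over TMM-scaled depth were 3.54 times higher with EGF in the Arid1a siRNA libraries (95% interval of counting error only, 1.39 to 10.7). They were 14.9 times higher with EGF in the control siRNA libraries (3.85 to 127). The call with Arid1a siRNAs, at edgeR adjusted p = 0.0390, was lost when any 1 of its 6 libraries was left out (edgeR adjusted p 0.0644 to 0.113) and with no filter on counts (edgeR adjusted p = 0.0509). That with control siRNA, at log2 3.70 ± 0.70 (edgeR adjusted p = 0.000559), was 2.54 without siCtrl replicate 1 (edgeR adjusted p = 0.0147), and without replicate 2 the remaining siCtrl library had 0 reads. The difference of the 2 responses, log2 -1.93 ± 1.13, did not pass (edgeR adjusted p = 0.621) and was -0.78 without siCtrl replicate 1. Its 95% interval of -4.36 to 0.487 holds both 0 and the value of Egr1.

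**Figure D2:**
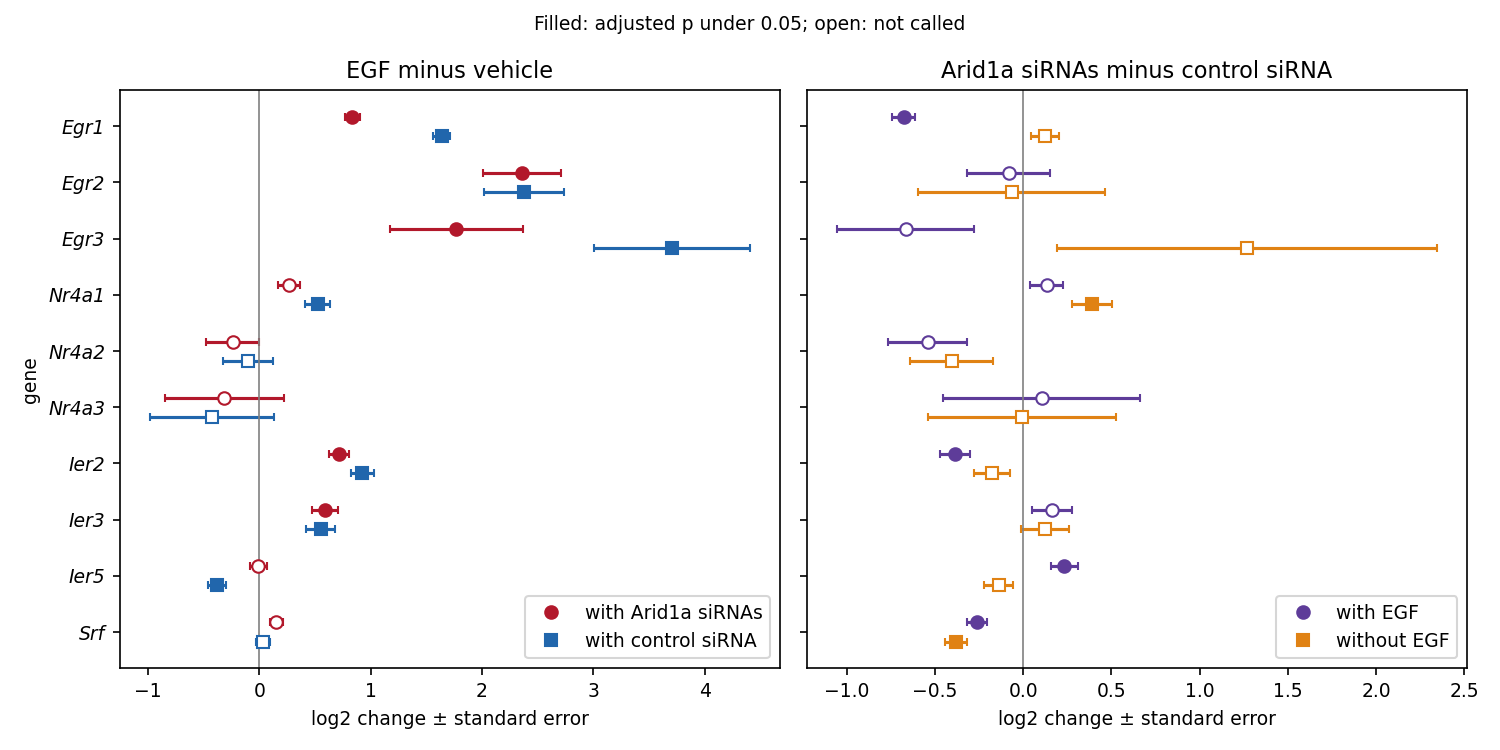
Log2 change ± SE of each gene for EGF against vehicle (left) and Arid1a siRNAs against control siRNA (right), with filled symbols at an adjusted p under 0.05. In the left panel Egr1 lies at 0.84 with Arid1a siRNAs and 1.64 with control siRNA, and Egr2 at 2.36 and 2.38. Egr3 (1.77 and 3.70) and Ier5 (-0.01 and -0.38) also lie apart, but of the 10 genes only Egr1 had a difference that passed.

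Among the nuclear receptor genes, Nr4a1 was the only one called in any comparison, and its changes were small. Nr4a1, also called Nur77, is induced by many stimuli and acts without a known hormone. It had 14.2, 14.6 and 15.8 CPM in siArid1a with EGF, against 12.02, 11.9 and 13.1 CPM in siArid1a. With control siRNA it had 13.9, 13.7 and 13.1 CPM with EGF, against 8.79 and 10.2 CPM in siCtrl. The siCtrl libraries were the lowest of the 11, and the other 3 groups lay within 11.9 to 15.8 CPM. With Arid1a siRNAs the libraries with EGF lay above those without, but the change of log2 0.27 ± 0.10 did not pass (edgeR adjusted p = 0.0618), whereas it passed on the deposited FPKM values with limma (adjusted p 0.0170 to 0.0193). With control siRNA EGF raised it 1.44-fold (log2 0.52 ± 0.11, edgeR adjusted p = 0.00191).

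Without EGF, Nr4a1 was 1.31-fold higher in siArid1a than in siCtrl (log2 0.39 ± 0.11, edgeR adjusted p = 0.0137). That call was lost without siCtrl replicate 1 (log2 0.28, edgeR adjusted p = 0.145) and when only the 2 groups compared were fitted (edgeR adjusted p = 0.0525). With EGF the knockdown groups did not overlap, but the change of 0.13 ± 0.10 did not pass (edgeR adjusted p = 0.276). The difference of its EGF responses, -0.26, did not pass either (edgeR adjusted p = 0.645).

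Nr4a2, best known for its need in midbrain dopamine neurons, had no change with EGF that passed. It had 2.68, 1.75 and 2.01 CPM in siArid1a with EGF and 2.52, 3.19 and 1.74 CPM in siArid1a, which overlapped. The control siRNA libraries had 3.40, 2.84 and 3.23 CPM with EGF and 3.44 and 3.29 CPM in siCtrl. The log2 change with EGF was -0.24 with Arid1a siRNAs (95% interval -0.750 to 0.272, edgeR adjusted p = 0.518). With control siRNA it was -0.10 (95% interval -0.579 to 0.376, edgeR adjusted p = 0.760). All 6 Arid1a siRNA libraries were below the control siRNA libraries of their EGF condition. Neither difference passed, at log2 -0.54 ± 0.23 with EGF (edgeR adjusted p = 0.0613) and -0.40 ± 0.23 without (edgeR adjusted p = 0.191). The first was called in 3 of the alternatives (edgeR adjusted p 0.0322 to 0.0454), namely a fit of only the groups compared and fits without siArid1a replicate 3 or without siArid1a with EGF replicate 1.

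Nr4a3, the gene of the family with the lowest FPKM, had 0.219 to 0.774 CPM in siArid1a with EGF, 0.373 to 0.798 CPM in siArid1a, 0.247 to 0.652 CPM in siCtrl with EGF, and 0.404 and 0.859 CPM in siCtrl. The 4 groups overlapped, and no comparison passed. Its EGF ratio over TMM-scaled depth was 0.798 with Arid1a siRNAs (95% counting interval 0.411 to 1.53) and 0.745 with control siRNA (0.376 to 1.47). A rise of the size seen for Egr2 therefore lies outside the counting interval in both conditions.

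The Ier genes, which share a name for their early induction, differed in direction. Ier2, which encodes a nuclear protein, had the pattern nearest to Egr1 among the 10 (Pearson r of log2 CPM 0.94 over the 11 libraries). It had 65.5, 71.5 and 61.7 CPM in siArid1a with EGF, against 40.6, 39.5 and 40.8 CPM in siArid1a. With control siRNA it had 85.7, 90.03 and 84.1 CPM with EGF, against 51.8 and 38.9 CPM in siCtrl. Libraries with EGF lay above those without in both conditions, and the siCtrl pair was wider than the 3 siArid1a libraries. EGF raised it 1.64-fold with Arid1a siRNAs (log2 0.72 ± 0.09, edgeR adjusted p = 6.01e-05) and 1.90-fold with control siRNA (log2 0.93 ± 0.10, edgeR adjusted p = 6.33e-06).

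With EGF, Ier2 was lower in siArid1a than in siCtrl (log2 -0.39 ± 0.09, edgeR adjusted p = 0.00209), and the groups did not overlap. Without EGF the difference of -0.18 did not pass (edgeR adjusted p = 0.189), and it passed without siCtrl replicate 2, the lower of that pair (log2 -0.36, edgeR adjusted p = 0.00731). EGF added 25.9 ± 2.87 CPM of Ier2 with Arid1a siRNAs and 41.3 ± 6.68 CPM with control siRNA (SE). On the log2 scale the difference of the responses was -0.21 ± 0.13 and did not pass (edgeR adjusted p = 0.706).

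Ier3, known for a part in cell survival, rose with EGF to a similar degree in both conditions. It had 13.6, 13.5 and 15.3 CPM in siArid1a with EGF, against 9.88, 8.90 and 9.48 CPM in siArid1a. With control siRNA it had 11.1, 12.4 and 14.4 CPM with EGF, against 8.14 and 9.16 CPM in siCtrl. The groups with and without EGF did not overlap. The rise was 1.503-fold with Arid1a siRNAs (log2 0.59 ± 0.12, edgeR adjusted p = 0.00226) and 1.47-fold with control siRNA (log2 0.55 ± 0.13, edgeR adjusted p = 0.00429), and the second was lost without siCtrl replicate 1 (log2 0.45, edgeR adjusted p = 0.0592). The knockdown moved it by 0.16 with EGF and 0.12 without, and neither passed (edgeR adjusted p = 0.259 and 0.503). The difference of the responses was 0.04, with a 95% interval of -0.341 to 0.415, which does not reach the difference seen for Egr1.

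Ier5, known in human cells as a target and regulator of the heat shock factor HSF1, was the gene of the 10 that fell with EGF. It had 97.9, 111 and 91.5 CPM in siArid1a with EGF and 108, 94.4 and 100.3 CPM in siArid1a, which overlapped. With control siRNA it had 81.5, 84.8 and 89.4 CPM with EGF, against 115 and 106 CPM in siCtrl, with no overlap. The log2 change with EGF was -0.01 with Arid1a siRNAs, which did not pass (edgeR adjusted p = 0.961), and -0.38 ± 0.08 with control siRNA, a fall (edgeR adjusted p = 0.00235). The difference of the responses, 0.37 ± 0.11, was the second most separated of the 10 genes by its unadjusted p of 0.00471, and it did not pass over all genes (edgeR adjusted p = 0.185). With EGF, Ier5 was 1.18-fold higher in siArid1a than in siCtrl (edgeR adjusted p = 0.0195), a call that was lost without siCtrl with EGF replicate 1 (log2 0.20, edgeR adjusted p = 0.0810), siCtrl with EGF replicate 2 (0.23, 0.0511) or siArid1a with EGF replicate 2 (0.15, 0.106).

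Srf was lower with Arid1a siRNAs, and its changes with EGF did not pass. It had 78.2, 81.1 and 79.8 CPM in siArid1a with EGF and 75.5, 68.1 and 71.7 CPM in siArid1a. The control siRNA libraries had 98.98, 93.3 and 94.3 CPM with EGF and 94.8 and 91.6 CPM in siCtrl. Every Arid1a siRNA library was below every control siRNA library. The decrease was log2 -0.26 ± 0.06 with EGF (edgeR adjusted p = 0.00148) and -0.38 ± 0.06 without (edgeR adjusted p = 0.000268), and both calls held in every alternative run. With Arid1a siRNAs every library with EGF lay above every one without it, a gain of 7.90 ± 2.30 CPM (SE), and the log2 change of 0.15 ± 0.06 did not pass (edgeR adjusted p = 0.0678). With control siRNA the log2 change with EGF was 0.03 ± 0.06 (edgeR adjusted p = 0.708; 95% interval -0.098 to 0.166).

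Among the 10 genes, the largest called change with Arid1a siRNAs was that of Egr1 in the presence of EGF (log2 -0.68 ± 0.07). With EGF, 1 rose (Ier5), 3 fell (Egr1, Ier2 and Srf) and 6 did not pass, where 23.7% of all tested genes rose and 23.2% fell (46.9% in either direction). Without EGF, 1 rose (Nr4a1), 1 fell (Srf) and 8 did not pass, where 18.8% of all tested genes rose and 20.1% fell (38.9% in either direction). In the presence of EGF, the Arid1a siRNA libraries lay wholly above the control siRNA libraries for 2 of the 10 genes and wholly below for 5, where 28.8% of all tested genes lay wholly above and 28.8% wholly below. In its absence, they lay wholly above for 1 and wholly below for 2, where the shares were 26.8% and 27.9%. The medians were -0.17 with EGF and -0.04 without, against 0.00 and -0.01 over all tested genes. Those shares are of the same order as the background, so the counts alone say nothing particular of these genes. The Arid1a comparisons with and without EGF share no library with each other, but both share libraries with the EGF comparisons.

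**Figure D3:**
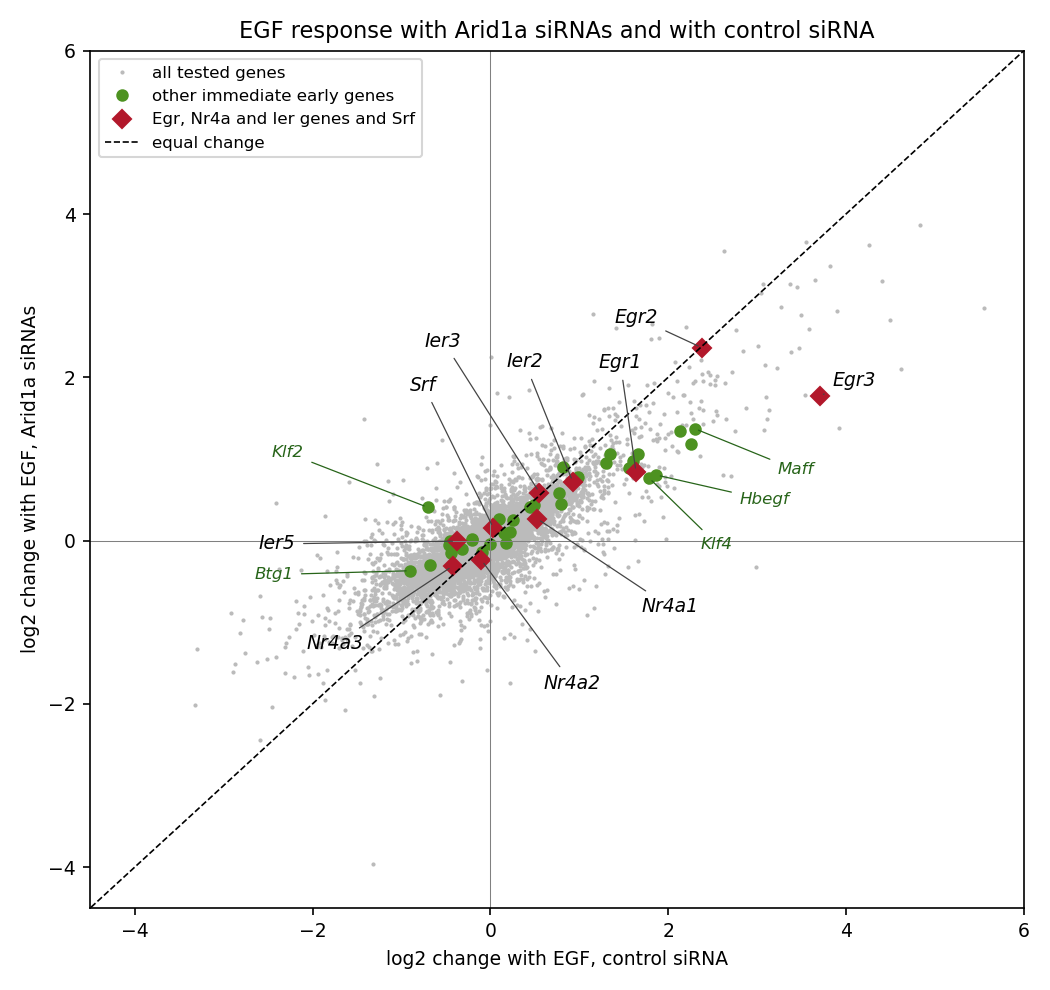
Log2 change with EGF in Arid1a siRNA cells (y axis) and in control siRNA cells (x axis) for all 13343 tested genes, with the 10 genes as diamonds, 33 other immediate early genes as circles and a dashed line of equal change. Egr1, Hbegf and Klf4 lie below the line, at 0.84, 0.80 and 0.77 on the y axis and 1.64, 1.87 and 1.78 on the x axis, and Egr2 lies on it.

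Other immediate early genes, listed by name, were set beside the 10. Of 33 tested out of 34, 17 rose and 1 fell with EGF among Arid1a siRNA libraries, and 18 rose and 6 fell among control siRNA libraries, with medians of 0.41 and 0.25. The 15 that rose in both included Junb, an AP-1 subunit gene, at log2 1.06 ± 0.12 with Arid1a siRNAs and 1.35 ± 0.13 with control siRNA. They also included Fos, at 0.95 ± 0.13 and 1.30 ± 0.16. In 14 of the 15 the log2 change was smaller with Arid1a siRNAs, as it was in 4 of the 5 members that rose in both. Of all 1480 tested genes that rose in both, 80.2% likewise had a smaller log2 change with Arid1a siRNAs. The difference of the responses was called below 0 for 4 and above 0 for 2, where 0.944% of all tested genes were called in either direction. Among the called genes of the list, Hbegf, which encodes an EGF receptor ligand, had the lowest difference. Klf4, a transcription factor gene known for a part in acinar metaplasia in mice, had the next. Cyr61 was slightly lower than Hbegf, at log2 -1.08 ± 0.53, and did not pass (edgeR adjusted p = 0.540).

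Hbegf averaged 32.6 CPM in siArid1a with EGF and 18.8 CPM in siArid1a, and 33.5 CPM in siCtrl with EGF and 9.12 CPM in siCtrl. Its difference of responses was log2 -1.06 ± 0.14 (edgeR adjusted p = 0.00187). In that gene the levels with EGF were close, and the groups without EGF differed (log2 1.02 ± 0.11, edgeR adjusted p = 6.79e-06). Klf4 averaged 25.7 CPM in siArid1a with EGF and 15.1 CPM in siArid1a, and 37.7 CPM in siCtrl with EGF and 10.9 CPM in siCtrl, with a difference of responses of -1.02 ± 0.15 (edgeR adjusted p = 0.00559). Egr1 had the opposite layout to Hbegf, with like levels without EGF and a lower level in siArid1a with EGF. Maff, a small MAF gene, had a difference of -0.93 ± 0.16 (edgeR adjusted p = 0.0105) that was lost without siCtrl replicate 1 (log2 -0.69, edgeR adjusted p = 0.0761).

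Partners of the EGR proteins were measured with their corepressor genes. Nab2, which EGR proteins induce and which then restrains them, averaged 62.5 CPM in siArid1a with EGF and 52.8 CPM in siArid1a, and 36.0 CPM in siCtrl with EGF and 26.1 CPM in siCtrl. The Arid1a siRNAs raised it 1.74-fold with EGF (log2 0.80 ± 0.07, edgeR adjusted p = 4.80e-07) and 2.03-fold without (log2 1.02 ± 0.08, edgeR adjusted p = 4.06e-07). Nab1, its close relative, was lower with the Arid1a siRNAs in the presence of EGF (log2 -0.24 ± 0.06, edgeR adjusted p = 0.00529). Of the 3 genes of this list, which also holds Egr4, 1 rose with EGF in Arid1a siRNA libraries and 2 in control siRNA libraries. Ier5l, a relative of Ier5, was 1.88-fold higher in siArid1a with EGF than in siCtrl with EGF and 1.68-fold higher in siArid1a than in siCtrl (edgeR adjusted p = 3.10e-05 and 0.000706), and it did not pass for EGF.

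SRF works through cofactors, and 2 of their genes moved with the knockdown as Srf did. Mkl1, which encodes the coactivator MRTF-A, was lower with Arid1a siRNAs, at log2 -0.41 ± 0.09 with EGF (edgeR adjusted p = 0.00112) and -0.55 ± 0.09 without (edgeR adjusted p = 0.000368). Elk3, which encodes a ternary complex factor, was lower at -0.35 ± 0.07 with EGF and -0.51 ± 0.08 without (edgeR adjusted p = 0.000564 and 0.000175). Elk3 also rose with EGF, by 0.99 ± 0.07 with Arid1a siRNAs and 0.84 ± 0.08 with control siRNA (edgeR adjusted p = 2.52e-07 and 1.34e-06). Elk1 did not pass in any of the 5 comparisons. Of the 6 cofactor genes, 2 fell with Arid1a siRNAs in the presence of EGF and 3 in its absence, and 0 rose. The shares over all tested genes were 23.2% and 20.1% lower, and 23.7% and 18.8% higher. Elk4 and Mkl2 did not pass in either comparison.

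Of 18 tested cytoskeletal genes known as targets of SRF and MRTF, 3 rose and 9 fell with Arid1a siRNAs in the presence of EGF, and 3 rose and 8 fell in its absence, with medians of -0.29 and -0.25. Over all tested genes, 23.7% rose and 23.2% fell with EGF present, and 18.8% rose and 20.1% fell without it. Cald1, the actin-binding protein caldesmon, was among the lowest, at log2 -1.09 ± 0.09 with EGF and -1.01 ± 0.10 without (edgeR adjusted p = 4.49e-07 and 4.10e-06). The tropomyosin gene Tpm4 was at -0.72 ± 0.06 and -0.73 ± 0.07, and its relative Tpm2 went the other way, at 0.55 ± 0.09 and 0.46 ± 0.10. For EGF, 6 rose and 2 fell with Arid1a siRNAs, and 5 rose and 3 fell with control siRNA. The difference of the EGF responses was called for 0 of 18.

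Levels of different genes were compared only per transcript length, in the FPKM values of the deposited table, which served 3 of the groups. Ier2 was the highest, at 45.3 FPKM in siArid1a with EGF, 27.7 FPKM in siArid1a and 59.4 FPKM in siCtrl with EGF. Egr1 averaged 19.8 ± 1.09 FPKM in siArid1a with EGF, 11.2 ± 0.596 FPKM in siArid1a and 31.8 ± 1.60 FPKM in siCtrl with EGF (SD, n = 3 each). Its place in the order therefore changed, below Ier5 and Srf in siArid1a (29.8 and 16.6 FPKM) and above both in siCtrl with EGF (25.2 and 22.1 FPKM). In siArid1a with EGF, Egr1 (18.60 to 20.6 FPKM) and Srf (17.9 to 18.61 FPKM) overlapped. Ier3 and Nr4a1 followed, at 14.1 and 5.77 FPKM in siArid1a with EGF, and Nr4a2, Egr2, Egr3 and Nr4a3 were under 1 FPKM on average in each of the 3 groups.

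**Figure D4:**
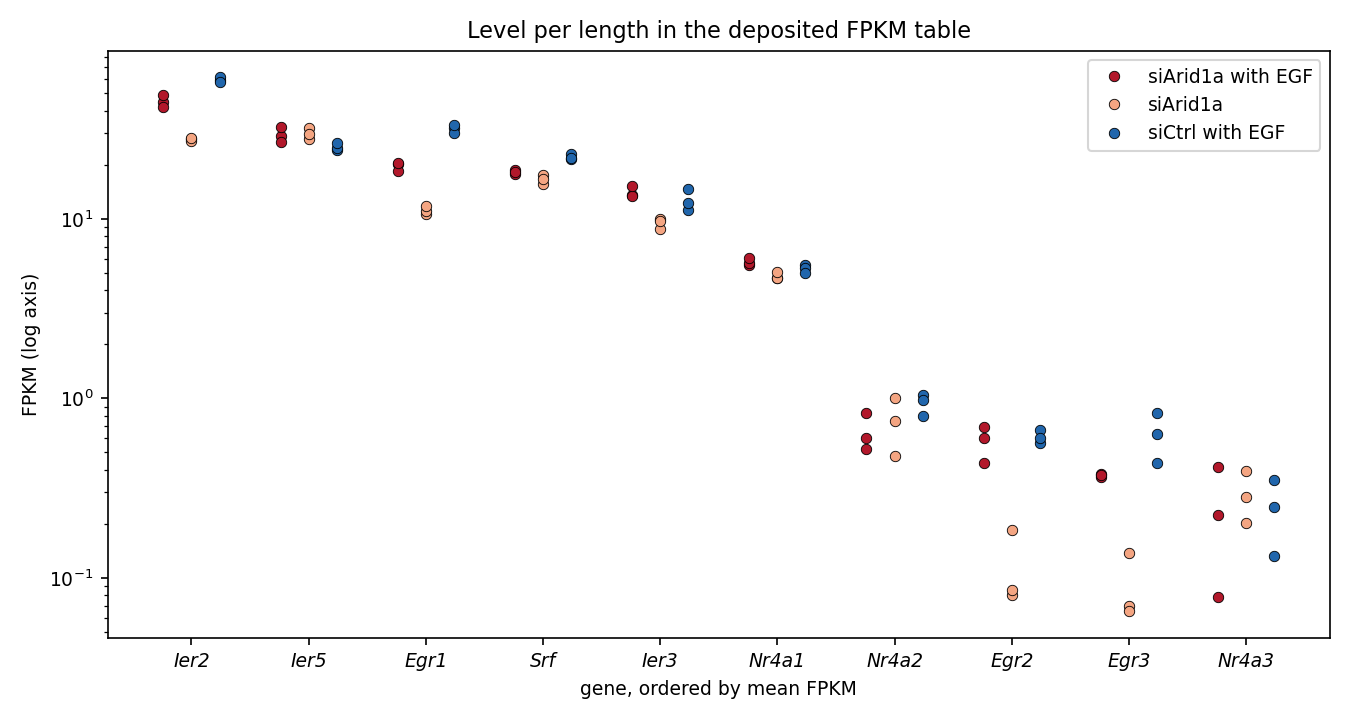
FPKM of each gene per library (points, log axis) in siArid1a with EGF, siArid1a and siCtrl with EGF, ordered by mean. Ier2, Ier5, Egr1, Srf and Ier3 lie above 8 FPKM in every library shown, and Nr4a2, Egr2, Egr3 and Nr4a3 about or under 1 FPKM.

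Genes whose pattern was most like that of a member were found by Pearson's r of log2 CPM over the 11 libraries, which share 4 treatments, so the likeness mostly follows the group means. For Egr1 they were Phlda1, Daf2 and Dok7 (r = 0.994, 0.992 and 0.992). Phlda1 averaged 130 CPM in siArid1a with EGF and 81.3 CPM in siArid1a, and 205 CPM in siCtrl with EGF and 79.3 CPM in siCtrl. After the group means were removed, r with Egr1 was 0.524 for Phlda1, 0.540 for Daf2 and 0.241 for Dok7. For Nr4a1 the nearest were Tmem214, Slc17a9 and Nomo1 (r = 0.967, 0.963 and 0.961), for Ier3 Gprc5c, Bcl10 and Cttn (0.970, 0.956 and 0.952), and for Srf Senp2, Med22 and Lrrc47 (0.972, 0.969 and 0.968).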

How the data were processed

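RNA of 266-6 cells was measured in 11 libraries made with the TruSeq RNA v2 kit, an unstranded method. The submitters' processing notes name TopHat2 2.1.1, the build mm9, HTSeq 0.9.1, Cuffnorm 2.2.1.2 and Cuffdiff 2.2.1.5 as what the authors used. Each library has a deposited table of raw counts by gene symbol. FPKM values, which the authors made with Cuffnorm, are deposited as 1 table, in which 3 columns of controls have no match among the 2 siCtrl libraries and were left out. The other 9 were matched to groups.

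The counts were tested with edgeR 4.0.16 in R 4.3.3 (quasi-likelihood, robust) over all 11 libraries in 4 group means. The filter was filterByExpr with a minimum count of 10 and a minimum total of 15, and 13343 genes passed it, 57.3% of those listed, with 99.96% of the reads. Libraries were TMM-scaled. The common dispersion was 0.00490. CPM, log2 changes, SE and 95% intervals come from that fit, and calls were made under 0.05 after Benjamini-Hochberg adjustment. The 5 comparisons were EGF under each siRNA, Arid1a siRNAs with and without EGF, and the difference of the EGF responses.

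Alternatives on the counts were DESeq2 1.42.0, limma-voom (limma 3.58.1), other filters and scalings, only the groups compared, a replicate block and leaving out each library. Those on FPKM were limma on log2(FPKM + 1) with and without a filter and on log2(FPKM + 0.1) with the filter. Genes were named by a rule: the 10 genes, Arid1a, the 3 highest and 3 lowest called genes of each list, and the 3 genes most like Egr1, Nr4a1, Ier3 and Srf. Some of these are given only in counts, and Junb, Fos, Elk1 and other values of the named genes were chosen with their values in view. The members and lists were chosen with earlier results of these data known. No library pair of a group agreed within sampling noise. Per RefSeq, Egr2, Nr4a2 and Srf overlap other genes, none of them in the count tables, so reads of those cannot be told apart.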

Additional observations from a re-analysis of the deposited data

Results flagged for a closer look

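Egr1 was singled out because its EGF response differed between the siRNA conditions by a test of the difference itself. The response was log2 0.84 ± 0.07 with Arid1a siRNAs (SE, higher in 3 of 3 libraries) and 1.64 ± 0.08 with control siRNA (higher in 3 of 3 libraries). The difference was -0.80 ± 0.10 (edgeR adjusted p = 0.00187). Over the 17 alternatives it lay between -0.86 and -0.74 and was called in each, with an adjusted p of at most 0.0173. For the other 9 genes the difference did not pass.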

How the results depend on the processing

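No called result changed direction. For the 10 genes in 5 comparisons, 879 of 902 values under the alternatives kept their side of the threshold (36 of them, in 13 results that were not called, had the other sign), 16 lost the call, 7 gained it, and 7 of 50 results were touched. For the other named genes, 1268 of 1349 values kept their side of the threshold (3 with the other sign, none of them called), 80 lost the call and 1 gained it. The number of genes over the whole table with a different EGF response was 126, fell to 56 with a replicate block, and ranged from 55 to 153 when libraries were left out in turn. Over all 17 alternatives that number ranged from 55 to 178. It was 55 without siCtrl with EGF replicate 1, 65 without its replicate 3, 63 without siCtrl replicate 1, 63 and 78 without siArid1a with EGF replicates 1 and 3, and 76 and 81 without siArid1a replicates 1 and 2. Of the 10 genes, the number called for Arid1a siRNAs without EGF was 2, became 1 with only the groups compared (Srf), and ranged from 1 to 3 with libraries left out. The call of Ier5 with Arid1a siRNAs and EGF was also lost in limma on log2(FPKM + 0.1) (adjusted p = 0.0559) and on FPKM with no filter (adjusted p = 0.0676). The cause was not tested. Same-numbered libraries did not deviate together more often than others, so the numbers were not used as pairs. Of same-numbered pairs, 4 of 15 were over 0.1 (r -0.381 to 0.316), against 12 of 30 with different numbers (r -0.316 to 0.381). The highest r was between siCtrl replicate 1 and siCtrl with EGF replicate 2. Deviations of siArid1a replicate 3 and siArid1a with EGF replicate 2 also went with both of them and with each other. Among the pairs of these libraries, 1 from each group, r was 0.120 to 0.381. The replicate block follows the numbers, so it does not model this shared deviation, and the cause was not tested. With the replicate block, the call of Egr3 for EGF with Arid1a siRNAs was lost (edgeR adjusted p = 0.0538). That of Maff for the difference of responses was lost too (edgeR adjusted p = 0.0520). Some alternatives gave no value for Egr2, Egr3, Nr4a2 or Nr4a3, which fell under a filter or had no adjusted p. Egr3 rested on 2 to 38 reads per group and Nr4a3 on 19 to 23, so small changes in either were not detectable at this depth.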

Other observations

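Genes of the wider early response whose difference of EGF responses was called above 0 were Klf2, an endothelial and lymphocyte transcription factor gene, and Btg1, an antiproliferative gene. Klf2 averaged 11.5 CPM in siArid1a with EGF and 8.76 CPM in siArid1a, and 6.49 CPM in siCtrl with EGF and 10.5 CPM in siCtrl, with a difference of responses of 1.11 ± 0.24 (edgeR adjusted p = 0.0464) that was lost in 11 alternatives (0.84 without siCtrl replicate 1, edgeR adjusted p = 0.224). Btg1 averaged 72.2 CPM in siArid1a with EGF and 93.5 CPM in siArid1a, and 62.1 CPM in siCtrl with EGF and 116 CPM in siCtrl, with a difference of 0.53 ± 0.10 (edgeR adjusted p = 0.0181) that was lost in 6 (0.43 without siCtrl replicate 1, edgeR adjusted p = 0.0910), and it fell less with EGF with Arid1a siRNAs than with control siRNA. Fosb, an AP-1 gene, did not pass for EGF, and was higher with Arid1a siRNAs both with EGF (log2 0.74 ± 0.20, edgeR adjusted p = 0.00706) and without it (log2 0.94 ± 0.22, edgeR adjusted p = 0.00390). Ptgs2, which encodes cyclooxygenase-2, rose with EGF in both siRNA conditions and was lower in siArid1a than in siCtrl with EGF, at log2 -1.50 ± 0.20.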
